A study of Mus musculus with 3 samples.

Results

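The genes described here are the olfactory receptor (Olfr) and vomeronasal receptor (Vmn1r and Vmn2r) genes that were assigned accessible chromatin in mouse prostate organoids, chosen by their names alone: every gene of the deposited ATAC-seq gene table whose symbol begins with Olfr and a number, with Vmn1r or with Vmn2r. There were 59 such genes among 18890, of which 46 were olfactory receptors, 10 type 1 vomeronasal receptors and 3 type 2 vomeronasal receptors (Vmn2r29, Vmn2r57 and Vmn2r-ps159). ATAC-seq cuts open chromatin with a transposase, so that sequenced fragments pile up where DNA is accessible. The organoids were grown from basal cells of wildtype C57BL/6J mouse prostate and were kept for 7 days in 10 µM UK5099, an inhibitor of the mitochondrial pyruvate carrier, in 20 mM sodium lactate, or in vehicle. Each condition had 1 library, so variation between cultures could not be measured, no test across cultures was possible, and every difference below compares 1 library with 1 other.

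Olfactory and vomeronasal receptors are G protein-coupled receptors for odorants and pheromones, and together they form some of the largest gene families of the mouse genome. An olfactory sensory neuron expresses a single receptor allele, while the other receptor genes lie in compacted heterochromatin. In the nose, receptor genes and their enhancers are bound by the homeodomain factor LHX2 and by EBF factors. Vmn1r receptors act with the G protein subunit Gnai2 and Vmn2r receptors with Gnao1 in separate layers of the vomeronasal organ. The olfactory coding sequence lies in a single exon, often with short non-coding exons upstream, so a transcript can start some kilobases before the coding part. In epithelia outside the nose most of these genes are silent. Transcripts were not measured here, and only the accessibility of their chromatin is described.

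Most receptor genes were not listed in the table. By gene ID, 59 of the 1465 protein-coding receptor genes in RefSeq were in the table (4.03%), against 15901 of 20435 other protein-coding genes (77.8%). The share was alike in the families, with 46 of 1110 Olfr genes (4.14%), 10 of 231 Vmn1r genes (4.33%) and 3 of 124 Vmn2r genes (2.42%). None of the 607 annotated receptor pseudogenes was listed. How many other pseudogenes were listed was not counted, so whether the table's gene set covers pseudogenes is not known. On chromosome 2, 0 of 287 receptor genes and 1271 of 1495 other protein-coding genes were listed. On chromosome 7, which carries the most receptor genes, 13 of 417 were listed. The listed share was higher on some chromosomes with fewer receptors, at 5 of 28 on chromosome 1 and 7 of 49 on chromosome 13.

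The accessible sequences themselves were of several kinds, and the ones below carry the patterns described later. Peaks of the 3 libraries that lay within 500 bp of each other were joined, which gave 74 regions for the 59 genes, and a window of 200 bp of the GRCm38 reference (the build the files call mm10, plus strand, 5′ to 3′) was read around the centre of each. The first 5 windows lie within 1 kb of an annotated transcript start of a receptor gene or receptor pseudogene and hold an AP-1 site. AP-1 sites are bound by FOS and JUN proteins, and any match to TGANTCA, with any base at N, was taken for one. In the Olfr1543-ps1 and Vmn1r210 windows the match is TGAATCA. The last pair contrasts a window in the class I olfactory receptor cluster, the highest ratio to vehicle in both treatments, with the start of Zfp174, the highest region of the set. Capitals mark AP-1 sites and, in the Olfr536 window, also a p63 pair (CATG, 6 further bases, CATG), repeats of the kind bound by the basal cell factor p63.
Upstream of the Olfr433 transcript start, chr1:174040941-174041140: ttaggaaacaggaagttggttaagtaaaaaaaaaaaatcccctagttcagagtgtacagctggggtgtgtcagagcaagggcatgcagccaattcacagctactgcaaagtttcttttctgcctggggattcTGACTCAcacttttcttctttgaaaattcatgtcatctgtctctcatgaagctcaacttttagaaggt
Upstream of the Olfr432 transcript start, chr1:174048989-174049188: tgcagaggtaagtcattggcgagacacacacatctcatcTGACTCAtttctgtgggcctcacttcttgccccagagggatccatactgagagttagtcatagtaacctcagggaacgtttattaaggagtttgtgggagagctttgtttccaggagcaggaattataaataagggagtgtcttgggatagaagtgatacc
Upstream of the Olfr1543-ps1 start, listed with Olfr902 and Olfr904, chr9:38456301-38456500: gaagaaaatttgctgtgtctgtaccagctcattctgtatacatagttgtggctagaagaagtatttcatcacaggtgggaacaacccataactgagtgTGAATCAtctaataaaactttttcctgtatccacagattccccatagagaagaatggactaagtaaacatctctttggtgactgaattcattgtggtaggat
At the Vmn1r210 transcript start, chr13:22831133-22831332: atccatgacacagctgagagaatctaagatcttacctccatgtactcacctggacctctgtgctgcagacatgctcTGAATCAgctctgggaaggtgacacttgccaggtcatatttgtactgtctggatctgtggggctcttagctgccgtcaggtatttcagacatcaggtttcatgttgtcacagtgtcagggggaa
Upstream of the Olfr536 start, chr7:140507757-140507956: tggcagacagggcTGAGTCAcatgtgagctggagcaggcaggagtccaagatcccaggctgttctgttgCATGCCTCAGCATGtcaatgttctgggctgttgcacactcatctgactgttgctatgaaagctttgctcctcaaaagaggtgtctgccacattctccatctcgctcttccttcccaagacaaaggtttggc
Downstream of the Olfr544 start, listed with Olfr543, Olfr544 and Olfr545, chr7:102485117-102485316: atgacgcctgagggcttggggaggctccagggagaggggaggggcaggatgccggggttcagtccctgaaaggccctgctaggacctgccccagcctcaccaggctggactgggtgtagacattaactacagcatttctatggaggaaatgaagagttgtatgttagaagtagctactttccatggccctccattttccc
At the Zfp174 start, listed with Olfr15, chr16:3847133-3847332: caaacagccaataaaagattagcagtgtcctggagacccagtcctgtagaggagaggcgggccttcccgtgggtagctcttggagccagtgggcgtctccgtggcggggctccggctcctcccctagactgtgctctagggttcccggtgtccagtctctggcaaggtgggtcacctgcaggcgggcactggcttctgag

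Receptor genes had low peaks. In such bulk libraries, accessibility in fewer cells and less accessibility in each cell cannot be told apart. The deposited value of a gene is the average peak height of its regions, where the height is the number of extended reads stacked at the highest point of a region, scaled between libraries. The median height over the 59 receptor genes was 38.0 in UK5099 (range 3 to 198), 35.3 in lactate (4.24 to 215) and 28.2 in vehicle (5.17 to 173). Over all genes the median was 58.7 in UK5099, 60.3 in lactate and 51.3 in vehicle, and over the 5131 genes with 1 merged region it was 52.0 in UK5099, 54.7 in lactate and 47.7 in vehicle. By mean height over the 3 libraries, 31 of the 59 receptor genes (52.5%) lay below the lower quartile of all genes (36.2), and 14 reached the median of all genes (56.7). The heights were whole multiples of a step that differed between libraries, from which a depth relative to UK5099 of 2.12 followed for lactate and of 1.74 for vehicle. In stacked reads, the median receptor gene rested on 41 reads in UK5099, 101 in lactate and 79 in vehicle, against 154 in UK5099, 330 in lactate and 233 in vehicle for the median of all genes.

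**Figure D1:**
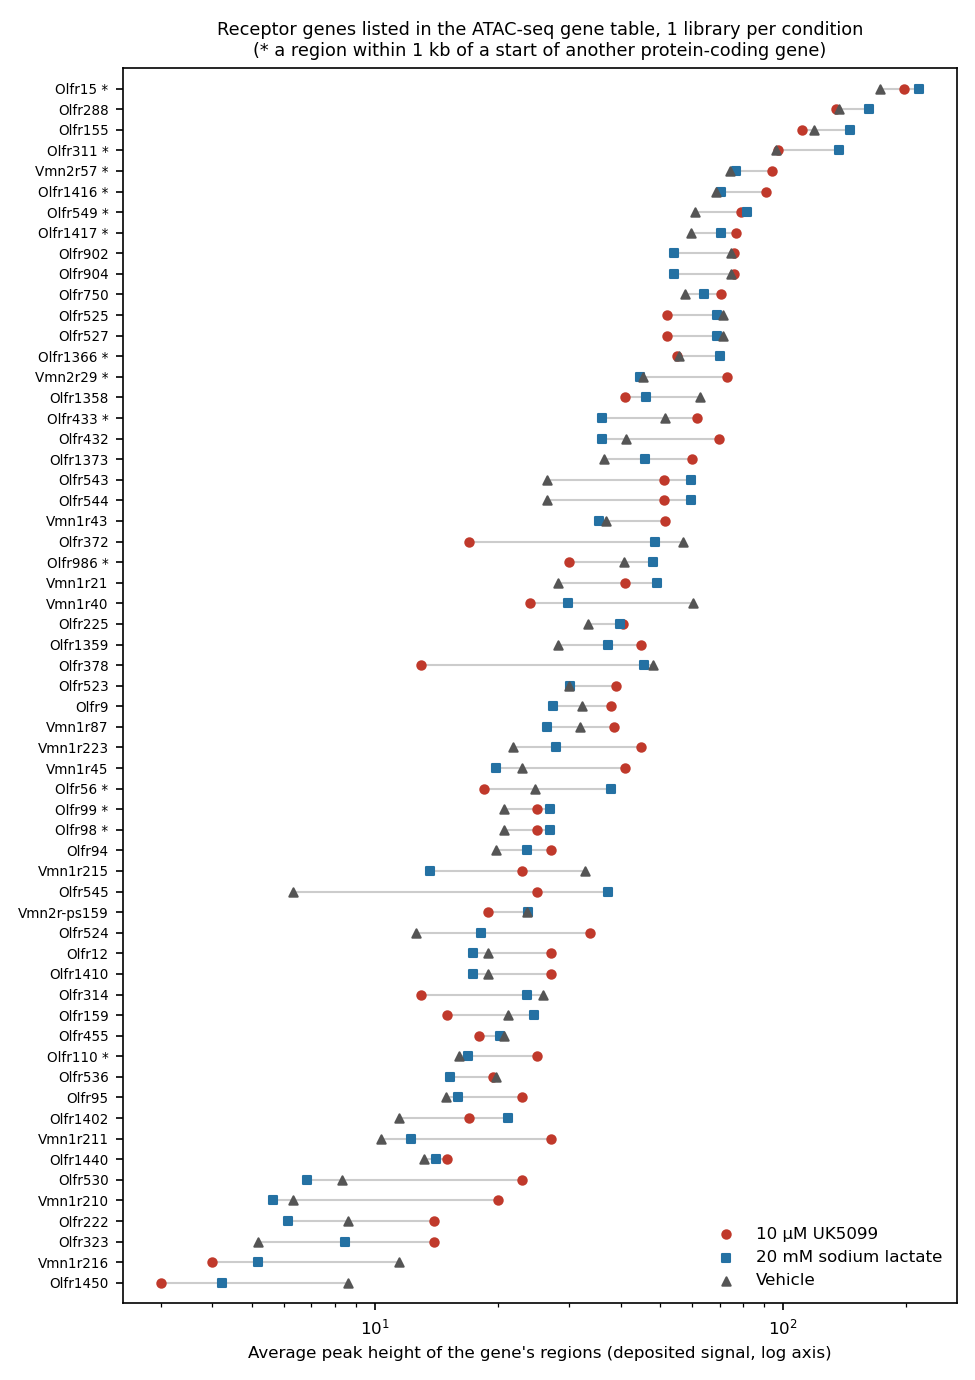
Average peak height (deposited signal, log axis) of each of the 59 receptor genes, ordered by mean height, with 1 point per library: UK5099 (circles), lactate (squares) and vehicle (triangles). Heights ran from 3 to 215, and 6 of the 10 genes at the top carried a region within 1 kb of a start of another protein-coding gene (asterisks).

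They also had few regions. Of the 59 genes, 40 had 1 merged region (67.8%, against 27.2% of all genes), 14 had 2, 4 had 3 and only Olfr433 had 4. A peak was called in all 3 libraries for 36 receptor genes (61.0%), against 90.2% of all genes. Counted by region, where the number of regions per gene plays no part, a peak in all 3 libraries was held by 52.7% of receptor regions and 57.3% of all regions. A call in a single library was held by 12 receptor genes (20.3%, against 4.43% of all genes), 6 of them in UK5099, 3 in lactate and 3 in vehicle, while 25.7% of receptor regions and 24.8% of all regions had a peak in 1 library. By library, 50 receptor genes had a called peak in UK5099 (84.7%), 50 in lactate (84.7%) and 42 in vehicle (71.2%). Among all genes with 1 merged region the shares were 83.1% in UK5099, 88.4% in lactate and 84.7% in vehicle. Calls and heights could part, as in Olfr549, which was called in vehicle alone with a region 79.0 high in UK5099, 81.5 in lactate and 60.9 in vehicle. That region held a peak of all 3 libraries, listed for the neighbouring gene Trim21.

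The peaks seldom lay at the receptors' own starts. Of the 195 peaks listed with receptor genes, 14 (7.18%) were within 1 kb of the annotated gene start, against 27.1% of the peaks of all genes and 59.1% of the peaks of genes with 1 merged region. Peaks downstream of the gene made up 57.9%, upstream ones 33.8% and those inside the gene 8.21%, whereas over all genes 47.1% were inside the gene. The closest peak was at a median of 6546 bp from the start of a receptor gene, against 158 bp over all genes and 473 bp over genes with 1 merged region. A receptor gene is short (median 959 bp, against 17016.5 bp over all genes), and 83.6% of its listed peaks fell within 10 kb.

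**Figure D2:**
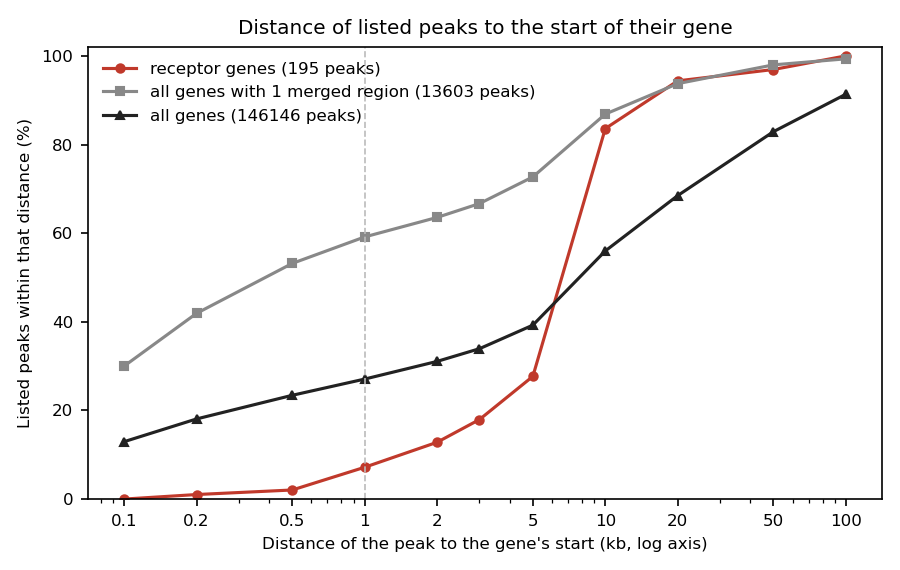
Share of listed peaks (percent) within a given distance of the start of their gene (kb, log axis) for receptor genes, for genes with 1 merged region and for all genes. At 1 kb (dashed line) the curve of the receptor genes stood at 7.18%, below 59.1% and 27.1%, and it climbed mainly between 5 and 10 kb.

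Only 6 of the 59 receptor genes (10.2%) had a peak within 1 kb of the gene start, against 69.4% of all genes. Olfr750 was the highest of them, with 70.7 in UK5099, 64.1 in lactate and 57.7 in vehicle over 3 regions. Its own start region alone, obtained as the difference between Olfr750 and the neighbouring ribonuclease family gene Rnase12, stood at 45.0 in UK5099, 81.0 in lactate and 51.7 in vehicle. Olfr94, beside the ubiquitin-like gene Ubd, had 27.0 in UK5099, 23.6 in lactate and 19.8 in vehicle. Vmn2r-ps159, which RefSeq lists as protein-coding in spite of its symbol, had 19.0 in UK5099, 23.8 in lactate and 23.6 in vehicle, and Olfr536 had 19.5 in UK5099, 15.3 in lactate and 19.8 in vehicle. Olfr222, which shared its region with the inflammasome gene Nlrp3, was among the lowest receptor genes at 14 in UK5099, 6.13 in lactate and 8.62 in vehicle. The sixth was Olfr433. When every annotated transcript start of a gene was taken, the number with a peak within 1 kb was 12.

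Several regions lay at upstream transcript starts, away from the coding exon. For Olfr433 and Olfr432, neighbours on chromosome 1 beside the interferon-inducible genes, regions lay 78 bp upstream of a transcript start of Olfr433 and 117 bp upstream of one of Olfr432. The region listed with Olfr902 and Olfr904 on chromosome 9 lay 52 bp upstream of the pseudogene Olfr1543-ps1, and was 76.0 high in UK5099, 54.2 in lactate and 74.7 in vehicle. The Vmn1r210 region lay 116 bp inside its transcript start and reached 20.0 in UK5099, 5.65 in lactate and 6.32 in vehicle. In all, 14 of the 74 regions were within 1 kb of a receptor start.

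Other high values came with a region at the start of a different gene. Of the 74 regions, 26 were also listed for a gene outside the families, and 14 (18.9%) were within 1 kb of a transcript start of a protein-coding gene outside them, against 35.5% of all 44009 regions. The 14 receptor genes that carried such a region had median heights of 67.3 in UK5099, 59.1 in lactate and 53.6 in vehicle, and the other 45 had 27.0 in UK5099, 27.3 in lactate and 26.4 in vehicle. Olfr15, the highest receptor gene, had 198 in UK5099, 215 in lactate and 173 in vehicle, all from the region 36 bp upstream of Zfp174, a zinc finger gene. Olfr311 had 97.0 in UK5099, 137 in lactate and 96.0 in vehicle from a region 38 bp upstream of the predicted gene Gm12258. Olfr1416 shared its region with Ndufa10, a subunit of respiratory complex I, at 91.0 in UK5099, 70.7 in lactate and 68.4 in vehicle. Vmn2r57 (94.0 in UK5099, 76.8 in lactate and 74.1 in vehicle) was listed with the start of AI987944, Olfr549 with that of Trim21, an antibody-binding ubiquitin ligase, and Olfr1417 with that of Stx3, a membrane fusion protein. Heights were identical to those of a gene outside the families for 12 receptor genes and to those of another receptor gene for 10, so the 59 genes held 54 distinct sets of values.

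High values away from any such start were few. Olfr288 had 135 in UK5099, 162 in lactate and 137 in vehicle from 1 region 13909 bp downstream of its nearest transcript start, and 14378 bp from the nearest protein-coding start outside the families. Olfr155 had 111 in UK5099, 146 in lactate and 119 in vehicle from a region 5596 bp downstream of its start. Both regions had a called peak in every library, and together with Olfr15 and Olfr311 these were the 4 receptor genes above the upper quartile of all genes (84.0). Olfr525 and Olfr527 shared a region of 52.0 in UK5099, 68.8 in lactate and 71.3 in vehicle, and 59.0% of its window was masked repeat.

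The windows differed in composition from those of the rest of the table. The median content of G and C was 46.8% in the 74 receptor windows, against 53.5% in all 44009, and the median share of bases in masked repeats was 10.5%, against 0% in all windows. An AP-1 site was present in 21 receptor windows (28.4%) and in 25.7% of all windows. The windows were then grouped by place, after their values had been seen. Of the 14 near a receptor start, 7 (50%) held one, while none of the 14 windows near the start of another protein-coding gene did, against 8.65% of all windows near such starts. Farther than 1 kb from any start an AP-1 site was in 31.1% of receptor windows and 35.5% of all windows. The homeodomain sequence TAATNA was in 23.0% of receptor windows (15.4% of all) and the TATA box TATAAA in 9.46% (5.85% of all). Farther than 1 kb from any start, TAATNA was in 24.4% of receptor windows and 20.3% of all windows, and TATAAA in 13.3% and 7.55%. The EBF sequence (TCCC and GGGA with 2 bases between) was in 0 of 74 receptor windows and in 0.634% of all windows, and the CTCF core (CCANNAGG followed by NGGC) in 2.70% of receptor windows and 2.53% of all windows. The single p63 pair was the one in the Olfr536 window (0.750% of all windows). Both strands were searched, and a match says only that the letters are there.

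RefSeq promoter windows (the bases just before and after an annotated start, GRCm38.p6) showed how listed receptors compared with their whole families. TAATNA was in 24 of 57 promoters of listed receptor genes (42.1%), in 68.2% of 1272 promoters of all receptor genes and in 26.5% of all 32851 promoters. TATAAA was in 17.5% of listed receptor promoters, 39.5% of all receptor promoters and 13.6% of all promoters. AP-1 sites were in 6 of the 57 promoters (10.5%), in 15.9% of all receptor promoters and in 7.81% of all promoters. The EBF sequence was in 2 of the 57 (3.51%), in 0.393% of all receptor promoters and in 0.904% of all promoters. The p63 pair was in 0 of the 57, in 4.56% of all receptor promoters and in 0.712% of all promoters. Of the 59 listed genes, 56 had a promoter in this source.

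The first comparison, UK5099 against vehicle, addresses whether blocking pyruvate entry into mitochondria changed accessibility. The median ratio of the receptor genes was 1.21, against 1.15 over all genes and 1.13 over genes with 1 merged region, so that relative to the median gene it was 1.05. The ratio reached 1.5 for 17 of 59 receptor genes (28.8%), against 9.05% of all genes tested, and was 0.5 or less for 5 (8.47%), against 1.36%. With libraries scaled by the median of ratios, 10 were at or above 1.5 and 6 at or below 0.5, so the share of higher ones among those past a threshold was 62.5% in place of 77.3%. Low genes reached these thresholds more often in general: among genes below the lower quartile of height 16.2% were at 1.5 or more and 4.53% at 0.5 or less, where the 31 receptor genes had 11 (35.5%) and 3 (9.68%). None of the 14 receptor genes at or above the median height of all genes passed either threshold in any of the 3 comparisons. Of all genes at that height, 5.39% were at 1.5 or more and 0.0741% at 0.5 or less for UK5099 over vehicle. These shares were 2.93% and 0% for lactate over vehicle, and 0.879% and 0.0847% for UK5099 over lactate. With shares this low, none among 14 genes does not set the receptor genes apart. Among the 3 libraries, a gene called in a single library is listed through that library. Peaks of the library not analysed here also entered the listing, and 58 of all genes (0.307%) had a called peak in none of the 3. Of the 17 genes, 5 were called in UK5099 alone (Vmn1r210, Vmn1r211, Olfr530, Olfr323 and Olfr222). Of the 5 low genes, 2 were called in vehicle alone (Vmn1r216 and Olfr1450). The listing thus favoured the direction of these genes, though how far it fixed that direction is not known. Also among the 17, Olfr545, Vmn1r223, Olfr110 and Olfr95 were called in UK5099 and lactate but not in vehicle. Among the 5 low genes, Olfr378 and Olfr372 were called in lactate and vehicle but not in UK5099. The listing favoured the direction of these genes as well. Among the 36 receptor genes called in all 3 libraries, 8 (22.2%, against 7.70% of all such genes) were at 1.5 or more and 1 (2.78%, against 0.311%) at 0.5 or less.

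**Figure D3:**
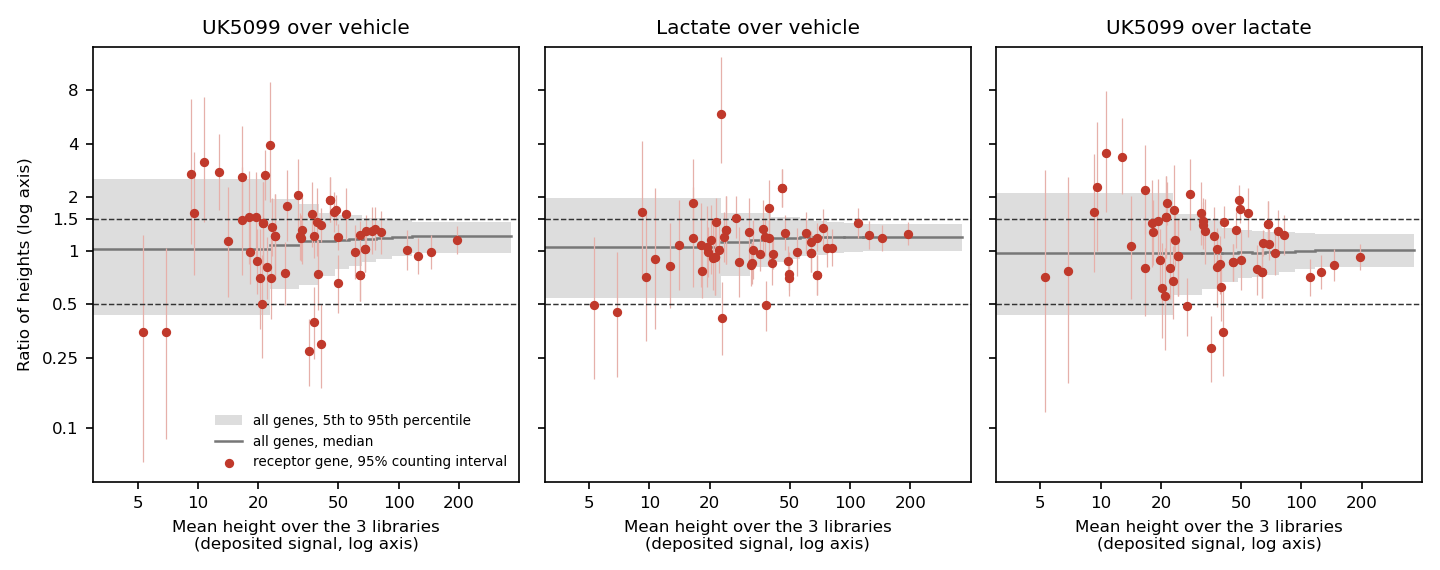
Ratio of heights (log axis) against mean height over the 3 libraries (deposited signal, log axis) for the 59 receptor genes (points, with 95% counting intervals), over the median and the 5th to 95th percentile of all genes in each decile of height (grey). Dashed lines mark 1.5 and 0.5. The receptor genes spread most at low height, and those above a mean height of 56.7 lay between the dashed lines in all 3 panels.

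Counting error alone left most of these ratios undecided. From the stacked reads, the exact conditional (Clopper-Pearson) 95% interval of the UK5099 to vehicle ratio lay above 1 for 19 receptor genes, below 1 for 5 and spanned 1 for 35. Set against the median gene (1.15) in place of 1, it lay above for 10, below for 10 and spanned it for 39. These intervals take stacked reads as independent and cover counting error only, not the variation between cultures. Among the high ratios on few reads, both of genes called in UK5099 alone, Vmn1r210 was at 3.16 and Olfr530, with 23.0 in UK5099, 6.83 in lactate and 8.33 in vehicle, at 2.76.

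Among the receptor genes at or above the median height of the families, the UK5099 to vehicle ratio was highest for Olfr543 and Olfr544 and lowest for Olfr378. Olfr378, a chromosome 11 receptor with 2 regions in its downstream flank, had 13.0 in UK5099, 45.7 in lactate and 48.0 in vehicle, a ratio of 0.271 (0.172 to 0.411). Olfr372 on chromosome 8 had 17.0 in UK5099, 48.5 in lactate and 56.9 in vehicle, a ratio of 0.299 (0.167 to 0.503). Both genes were called in lactate and vehicle but not in UK5099, so the listing favoured a UK5099 value below the other libraries. Their lactate to vehicle ratios were 0.952 for Olfr378 and 0.853 for Olfr372. Olfr1373 had 60.0 in UK5099, 45.9 in lactate and 36.5 in vehicle, a ratio of 1.64, and Vmn2r29, listed with the start of the zinc finger gene Zfp772, had 73.0 in UK5099, 44.8 in lactate and 45.4 in vehicle, a ratio of 1.61. Olfr1359, beside a histone gene cluster, had 45.0 in UK5099, 37.2 in lactate and 28.2 in vehicle, a ratio of 1.60. Below 1, Olfr1358 had 41.0 in UK5099, 46.2 in lactate and 62.6 in vehicle, a ratio of 0.654, and Olfr986, at the start of the zinc finger gene Zfp202, had 30.0 in UK5099, 48.1 in lactate and 40.8 in vehicle, a ratio of 0.735. Olfr524, with 3 regions and a lower mean height, had 33.7 in UK5099, 18.2 in lactate and 12.6 in vehicle, a ratio of 2.66.

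Lactate against vehicle asks whether added lactate changed accessibility. The median ratio of the receptor genes was 1.04, against 1.18 over all genes, which is 0.881 relative to the median gene. The ratio was 1.5 or more for 7 receptor genes (11.9%), against 6.07% of all genes, and 0.5 or less for 4 (6.78%), against 0.513%. Below the lower quartile of height the share at 1.5 or more was 12.9% of receptor genes and 11.6% of all such genes, and with 1 merged region 10.0% and 10.1%. Called in all 3 libraries, 4 of 36 receptor genes (11.1%, against 4.89% of all such genes) were at 1.5 or more and 2 (5.56%, against 0.111%) at 0.5 or less. After scaling by the median of ratios, 4 were at or above 1.5 and 4 at or below 0.5. The counting interval lay above 1 for 12, below 1 for 7 and spanned 1 for 40, and against the median gene (1.18) it lay above for 5, below for 13 and spanned it for 41. Vmn1r21 had 41.0 in UK5099, 49.0 in lactate and 28.2 in vehicle, a lactate ratio of 1.74 (1.23 to 2.50). Vmn1r215 had the lowest lactate ratio of the receptor genes, 0.417, with 23.0 in UK5099, 13.7 in lactate and 32.8 in vehicle.

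UK5099 and lactate can also be set against each other. The median ratio of UK5099 to lactate was 1.09 over receptor genes and 0.983 over all genes. It was 1.5 or more for 14 receptor genes (23.7%), against 3.71% of all genes, and 0.5 or less for 3 (5.08%), against 1.43%. Of the 14, 5 were the genes called in UK5099 alone. Among the 36 called in all 3 libraries, 6 (16.7%, against 2.18% of all such genes) were at 1.5 or more and 1 (2.78%, against 0.475%) at 0.5 or less. Among genes at or above the families' median height Olfr432 was highest at 1.94, and Olfr378 (0.284) and Olfr372 (0.350) were again lowest. Neither Olfr378 nor Olfr372 was called in UK5099, while both were called in lactate. Both comparisons with vehicle share the vehicle library, and 4 receptor genes were at or above 1.5 in both (2.75% of all genes), namely Olfr543, Olfr544, Olfr545 and Olfr323. Olfr543, Olfr544 and Olfr545 share a region, and Olfr543 and Olfr544 have identical heights, so they do not count as separate loci. At or below 0.5 in both (0.212% of all genes) were 3, namely Vmn1r40, Vmn1r216 and Olfr1450. Of these genes, Olfr323 was called in UK5099 alone, and Vmn1r216 and Olfr1450 in vehicle alone. Olfr545 was called in both treatments but not in vehicle.

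The height of a single region could be given for 40 of the 74. Most of these were the only region of a gene, so that the deposited value is that of the region. The rest were solved from the averages of neighbouring genes that share regions. Each of the 40 came out as a whole number of stacked reads (within 0.1) in every library. For the only region of a gene this follows from the step itself. The 11 at the start of another protein-coding gene had median heights of 73.0 in UK5099, 70.2 in lactate and 60.9 in vehicle. The 7 at a receptor start had 31.0 in UK5099, 31.1 in lactate and 35.6 in vehicle, and the 22 elsewhere 26.0 in UK5099, 24.0 in lactate and 22.4 in vehicle. The ranges of the classes overlapped in every library.

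**Figure D4:**
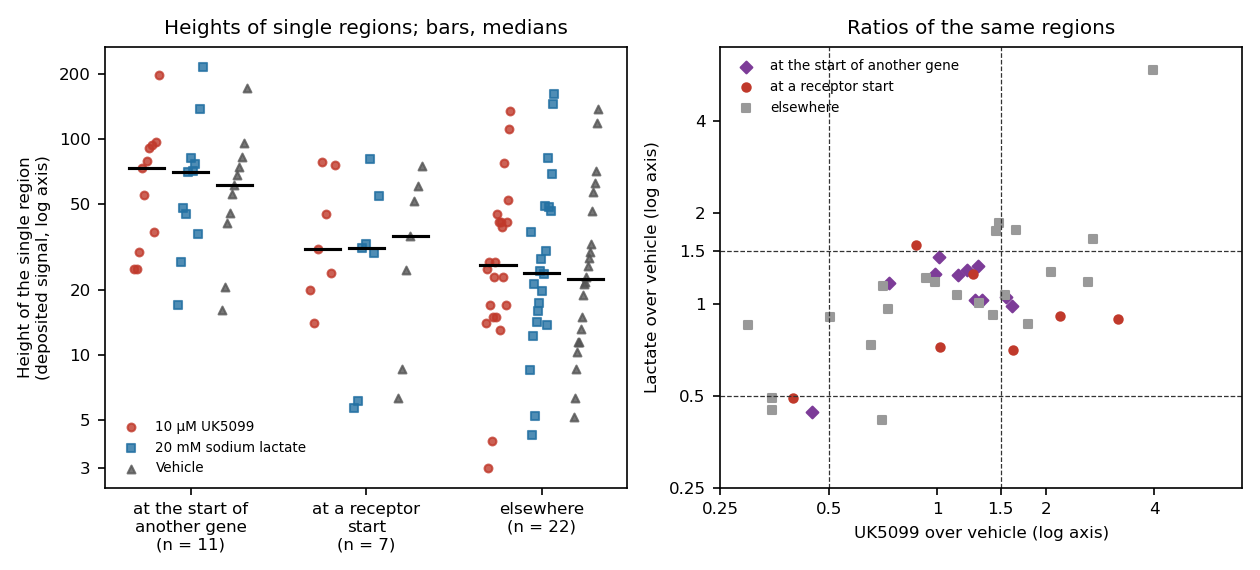
Left, heights of 40 single regions (deposited signal, log axis) by place and library, with bars at the medians. Right, the lactate to vehicle ratio against the UK5099 to vehicle ratio of the same regions (log axes, dashed lines at 1.5 and 0.5). Regions at the start of another gene had the highest medians, and the point at the upper right is the region listed with Olfr545.

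In the class I olfactory receptor cluster on chromosome 7, both treatments stood above vehicle. Olfr543 and Olfr544 shared 2 regions and had 51.0 in UK5099, 59.4 in lactate and 26.4 in vehicle, with ratios to vehicle of 1.93 (1.44 to 2.59) in UK5099 and 2.25 (1.76 to 2.88) in lactate. The region also listed with Rrm1, the large subunit of ribonucleotide reductase, was 77.0 in UK5099, 81.5 in lactate and 46.6 in vehicle, with ratios of 1.65 in UK5099 and 1.75 in lactate. The second region, the one printed above and the sole region of Olfr545, was 25 in UK5099, 37.2 in lactate and 6.32 in vehicle, with ratios of 3.95 (1.88 to 8.90) in UK5099 and 5.89 (3.12 to 12.3) in lactate. Its vehicle height rests on 11 stacked reads, and Olfr545 was called in UK5099 and lactate but not in vehicle. Olfr549, further along the cluster at the Trim21 start, was at 1.30 in UK5099 and 1.34 in lactate.

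Adjacent regions at Olfr432 and Olfr433 differed in direction. Olfr432 had 69.7 in UK5099, 36.0 in lactate and 41.2 in vehicle over 3 regions, and Olfr433, with 1 region more, had 61.5 in UK5099, 36.0 in lactate and 51.4 in vehicle. The additional region, 254 bp upstream of Ifi205, an interferon-inducible gene, was 37.0 high in UK5099, 36.3 in lactate and 82.2 in vehicle, with ratios of 0.450 (0.305 to 0.650) in UK5099 and 0.441 in lactate. The region 78 bp upstream of the Olfr433 transcript start was 78.0 in UK5099, 32.5 in lactate and 35.6 in vehicle, with a UK5099 ratio of 2.19 (1.55 to 3.11) and a lactate ratio of 0.912. The average of Olfr433 thus joined a region that was lower in both treatments with one that was higher in UK5099 alone.

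Vomeronasal receptors of the same cluster had ratios above and below 1, in part among genes called in 1 library. On chromosome 13, Vmn1r211 had 27.0 in UK5099, 12.3 in lactate and 10.3 in vehicle, and Vmn1r223 had 45.0 in UK5099, 27.8 in lactate and 21.8 in vehicle, with UK5099 ratios of 2.61 and 2.06. In the same cluster the UK5099 ratio was 0.702 for Vmn1r215 and 0.348 for Vmn1r216, which rested on 4 stacked reads in UK5099. Vmn1r211 was called in UK5099 alone, Vmn1r216 in vehicle alone, and Vmn1r223 in UK5099 and lactate but not in vehicle. On chromosome 6, Vmn1r40 had 24.0 in UK5099, 29.7 in lactate and 60.3 in vehicle, with ratios of 0.398 (0.244 to 0.624) in UK5099 and 0.492 (0.354 to 0.679) in lactate, from a region 724 bp upstream of a transcript start. Its neighbour Vmn1r45 had 41.0 in UK5099, 19.8 in lactate and 23.0 in vehicle, with ratios of 1.78 in UK5099 and 0.861 in lactate, and Vmn1r43 had 51.3 in UK5099, 35.3 in lactate and 36.8 in vehicle.

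Genes of olfactory signalling in the nose were listed about as often as other protein-coding genes (77.8%). Of 22 signalling genes 18 were in the table, with median heights of 53.8 in UK5099, 52.4 in lactate and 48.6 in vehicle. Many of these also work in other tissues, such as Gnb1 and Gnai2, subunits of G proteins. Cnga2, a channel subunit, the receptor transporters Rtp1 and Rtp2, and Stoml3 were not listed, and Omp, the marker protein of mature olfactory neurons, had 10.0 in UK5099, 23.6 in lactate and 23.6 in vehicle. Against vehicle, 2 of the 18 were at or above 1.5 in UK5099 (9.05% of all genes) and 2 at or below 0.5 (1.36%), and in lactate 1 was at or above 1.5 (6.07%) and 0 at or below 0.5 (0.513%). Ano2, the chloride channel of olfactory cilia, was higher in both, at 39.3 in UK5099, 30.4 in lactate and 18.0 in vehicle, with ratios of 2.19 in UK5099 and 1.69 in lactate. The closest peak of Ano2 lay 241709 bp from its start. Among factors tied to receptor choice, the table listed Lhx2 (43.8 in UK5099, 55.5 in lactate and 46.3 in vehicle) and Ebf1 (20.5 in UK5099, 22.9 in lactate and 22.7 in vehicle). All 10 basal epithelial markers were listed, with median heights of 66.8 in UK5099, 69.0 in lactate and 53.5 in vehicle, and a median UK5099 to vehicle ratio of 1.34. All 8 luminal markers were listed, with median heights of 35.5 in UK5099, 65.7 in lactate and 53.0 in vehicle and a median UK5099 to vehicle ratio of 0.824, lowest for the keratin Krt18 (26.3 in UK5099, 69.1 in lactate and 70.1 in vehicle). Listed too were 4 of 5 immune, 3 of 4 endothelial and 5 of 5 stromal markers. The part of this shift between basal and luminal markers, or of other cell types, in the receptor values was not tested.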

How the data were processed

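ATAC-seq libraries of wildtype mouse basal-derived prostate organoids treated with UK5099, lactate or vehicle (1 library each) were examined through the gene table that was deposited. Per the methods, the authors tagmented cryopreserved cells with a Nextera kit, aligned read pairs with BWA to mm10, removed duplicates, kept unique pairs, extended reads in silico into a signal map, called peaks with MACS in each library without a control, merged peaks over libraries and assigned them to genes. The MACS version differs between the methods and the submitters' processing notes (MACS3), and no source used here states a shift of reads for the transposase. The deposited values are signal: the height of the map at a region's highest bin, averaged over the regions of a gene. Called-peak flags are 0 or 1. The region merging by the authors included peaks of a library not analysed here (39900 listings, left out), and the table's columns of the highest library and value were not used. Averaging over regions mixes neighbouring genes' peaks, and unique alignment can lower signal in near-identical receptor copies.

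Heights times region counts were whole multiples of a step per library (within 0.05 for 99.99% or more of genes), which gave stacked reads and relative depth, but total depth is unknown. Ratios used no pseudocount and no filter. All 59 receptor genes were above 0 in each library. Counts at 1.5 or more and 0.5 or less follow thresholds of the study, and intervals are exact conditional ones (Clopper-Pearson) at 95%, for counting error only. Single-region heights were the deposited values where a gene had 1 region, and otherwise were solved from the averages of genes that share regions. Joined regions equalled the deposited region count for 94.9% of receptor genes and 82.0% of all genes. Transcript starts came from GENCODE M21 and sequence from GRCm38.p6 and RefSeq. All 59 genes matched RefSeq by gene ID. Genes named were the 10 highest, the 5 with most regions, the 6 highest and 6 lowest ratios per comparison among genes at or above the receptor median height, those with a peak within 1 kb of their start, the signalling genes and neighbours sharing a region. Vmn1r210, Vmn1r211, Vmn1r215, Vmn1r216, Vmn1r223, Vmn1r45, Olfr323, Olfr530, Olfr545 and Olfr1450 were chosen after their values were seen. The members, gene lists and motifs were chosen with earlier results of these data known. The alternatives were pseudocounts, height filters, 2 scalings, subsets of genes (the one called in all 3 libraries was added after seeing the data), and other thresholds and distances. The scripts were tested on simulated data. Python 3.11.15, pandas 2.3.3, numpy 2.4.6, scipy 1.17.1 and pysam 0.24.0 were used.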

Additional observations from a re-analysis of the deposited data

How the results depend on the processing

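With 1 library per condition no library was left out, and depth limits most the receptor genes with few stacked reads. No paired analysis was possible because each group held 1 library. Peaks were not refiltered by their own height, because heights are given per gene. Of the 96 alternative values of the main results, 50 kept their side and size. Keeping only genes called in all 3 libraries, an alternative chosen after seeing the data, gave 8 and 1 for UK5099 over vehicle, 4 and 2 for lactate over vehicle and 6 and 1 for UK5099 over lactate.

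For UK5099 over vehicle (17 receptor genes at 1.5 or more, 5 at 0.5 or less), a pseudocount of 5.63 left 3 at 0.5 or less, and a pseudocount of 56.3 left 0 and 0. Kept to genes not below the lower quartile of height the counts were 6 and 2, and not below the median 0 and 0. Either scaling (median of ratios, equal totals) gave 10 at 1.5 or more, genes sharing no region outside the families 8, genes with 1 region 11, and a threshold of 2 gave 7. For lactate over vehicle (7 and 4), the pseudocount of 5.63 left 0 at 0.5 or less and that of 56.3 left 0 and 0, the height filters gave 3 and 1, then 0 and 0. Either scaling gave 4 at 1.5 or more, genes sharing no outside region 3, genes with 1 region 4, and a threshold of 2 gave 3. The lactate median of 1.04 turned to 0.881 under either scaling and to 0.961 without genes sharing an outside region. For UK5099 over lactate (14 and 3), the pseudocount of 56.3 left 0 and 0, the height filters gave 3 and 1, then 0 and 0. Genes sharing no outside region gave 9 at 1.5 or more and a threshold of 2 gave 5, while genes with 1 region gave 1 at 0.5 or less and a lower threshold of 1/1.5 gave 6. The median of 1.09 turned to 0.944 under either height filter and to 0.95 with 1 region. Filters and subsets hold fewer genes by construction. For the other changes the cause was not tested. The share of receptor peaks near the start was 2.05% at 500 bp and 17.9% at 3 kb.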

Other observations

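Other chemosensory receptor families were listed at differing shares. By RefSeq gene ID, 4 of 15 trace amine-associated receptors (Taar) were in the table, 3 of 35 bitter taste receptors (Tas2r), 3 of 3 Tas1r taste receptors and 0 of 7 formyl peptide receptors (Fpr). The Taar genes had median heights of 26.0 in UK5099, 33.2 in lactate and 33.6 in vehicle, and the Tas1r genes 78.0 in UK5099, 64.3 in lactate and 46.0 in vehicle. Among the olfactory signalling genes, Cnga4, a channel subunit (314 in UK5099, 323 in lactate and 287 in vehicle) and Gng13 (208 in UK5099, 203 in lactate and 171 in vehicle) had the highest values. The closest peak lay 4216 bp from the start of Cnga4 and 10412 bp from that of Gng13. Gucy2d, the receptor guanylate cyclase of a subset of olfactory neurons, had 25 in UK5099, 36.7 in lactate and 53.4 in vehicle, with ratios to vehicle of 0.468 in UK5099 and 0.688 in lactate. The closest peak of Gucy2d lay 37858 bp from its start.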
